A study of Drosophila melanogaster with 56 samples.

Results

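The genes described here encode enzymes of de novo purine synthesis in Drosophila melanogaster: Prat, Prat2, Gart, Pfas, Paics, Adsl, Adss, ras and bur. They were taken as the probe sets annotated to those symbols in the deposited array table, and each symbol had 1 probe set that named no other gene, so the members are 9 of the 11983 genes on the array. All 9 were bright enough to be tested in every comparison, with a log2 signal of at least 4 on at least 4 arrays. The pathway was chosen by earlier results on these same log2 signals, from a contrast that is not recorded, so their differences between fasting times are given as a description and are not independent evidence about the pathway.

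The study hybridised 56 one-colour Affymetrix arrays, 1 per sample of total RNA, from 6 numbered pools of flies (4 to 9). Flies of a pool were taken at 0 h (labelled baseline) and after 24 and 48 h of fasting, and each was divided into antennae, maxillary palps together with the proboscis (called palp here), heads without these chemosensory organs, and bodies without the head. The groups were antenna with 4, 5 and 5 arrays at 0, 24 and 48 h, and palp, head and body with 5, 5 and 4 arrays each. The labels give no strain, sex or age, and the fasted groups have no fed counterpart of the same hour, so an effect of fasting and one of elapsed time cannot be told apart. The samples are dissected tissue, in which fewer cells of a type and less RNA per cell cannot be told apart.

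Purine nucleotides are built on a ribose phosphate carrier. Prat and Prat2 encode the amidotransferase of the committed step, Gart a single protein with 3 of the following activities, Pfas the synthase that acts between the last pair of them, Paics a carboxylase joined to a synthase, and Adsl the lyase that acts both before inosine monophosphate (IMP) is closed and again in the branch to adenosine monophosphate (AMP). Adss encodes the enzyme that starts the AMP branch, ras (raspberry) encodes IMP dehydrogenase, which starts the branch to guanosine monophosphate (GMP), and bur (burgundy) encodes GMP synthase. The pathway spends glutamine, glycine, aspartate and formyl groups carried by folate, and in flies its products also feed the pteridine eye pigments, which are made from guanosine triphosphate.

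The arrays shared a single distribution of values, with at most 0.033 between sorted arrays, so they do not show whether a sample held more or less RNA in total. The labelled tissues carried their markers at 0 h: Orco, the olfactory co-receptor, averaged 12.7 log2 signal in antenna against 2.84 in head, the odorant receptor Or42a averaged 8.03 in palp against 2.12 in head, and trp, a photoreceptor channel, averaged 14.8 in head against 2.19 in body. The trp signal was not confined to head, with means of 10.6 in antenna and 10.3 in palp at 0 h. The 3 Malpighian tubule markers measured (Oatp58Dc, Irk3 and Lkr) were not highest in body. They averaged 9.10 in head, 7.86 in antenna, 7.81 in body and 5.30 in palp at 0 h. The mean log2 signal of 4 gut genes (Jon65Aiii, alphaTry, Mal-A1 and Mal-A6) spread from 2.63 to 13.7 over the head arrays at 0 h, from 10.9 to 13.0 at 24 h and from 6.63 to 11.4 at 48 h, and reached 12.6 on 1 antenna array and 12.5 on 1 palp array at 0 h. The 4 fat body markers measured (Lsp2, Fbp1, apolpp and fat-spondin) averaged 9.38 to 10.2 log2 signal per body array at 0 h, 7.64 to 9.40 at 24 h and 7.12 to 8.70 at 48 h, with Fbp1 at the lowest value of the table throughout the 0 h arrays. At 48 h against 0 h, 3 of the 3 that could be tested fell in body, head and palp and 2 of 3 in antenna. The 5 ovary markers averaged at most 4.49 on any body array, whereas the 3 testis markers averaged at least 12.5 on every body array. Other markers moved with fasting too. The lipase gene mag, the gut marker that is not in the mean above, averaged 12.8, 10.1 and 9.29 in body at 0, 24 and 48 h. Its means at these times were 3.95, 9.77 and 8.87 in head, while palp had 2.65, 9.33 and 9.11. The 2 muscle markers averaged 11.1, 11.8 and 11.4 in head at these times. In palp they averaged 12.4, 13.0 and 12.7. The 3 accessory gland markers averaged 14.5, 14.2 and 13.6 in body, and on 1 antenna array at 24 h they reached 12.1 and the testis markers 8.45. The testis markers also reached 9.23 on a palp array at 24 h. At 0 h the accessory gland markers reached 5.81 in antenna and 5.40 in palp. The part of these markers in the members' differences was not tested.

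Purine synthesis genes rose with fasting in all 4 body parts, and none of the 9 fell in the fits of single body parts, although Prat2 in antenna passed as lower at 48 h under some alternatives, given with that gene. In palp, head and body the 3 largest differences were those of Gart, Pfas and Adsl, in the middle of the pathway, and Gart in body at 24 h reached 18.2-fold. In antenna Gart and Pfas rose, while Prat, Adss and ras passed there only under the alternatives given with each gene. All differences are of log2 signal, from limma with Benjamini-Hochberg adjustment over all features tested, and a member is counted as changed at an adjusted p under 0.05.

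After 24 h of fasting, 7 of the 9 members rose in body, 5 in head, 6 in palp and 2 in antenna. After 48 h, 8 rose in body, 7 in head, 9 in palp and 2 in antenna. The share of all tested features that rose was 9.17% in body, 7.52% in head, 11.0% in palp and 2.58% in antenna at 24 h, and 29.8% in body, 13.2% in head, 17.4% in palp and 8.61% in antenna at 48 h. The median difference of the members was 0.42 in body, 0.62 in head, 0.54 in palp and 0.17 in antenna at 24 h, and 0.75, 0.74, 0.71 and 0.19 in the same order at 48 h, where the median of all tested features was at most 0.10. Compared within a pool, members were higher at 48 h than at 0 h in 27 of 27 comparisons in palp. The count was 25 of 27 in body, 24 in head and 21 in antenna. Each count covers the 9 members in only 3 pools, so its comparisons are not independent. The same share over all features was not computed.

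**Figure D1:**
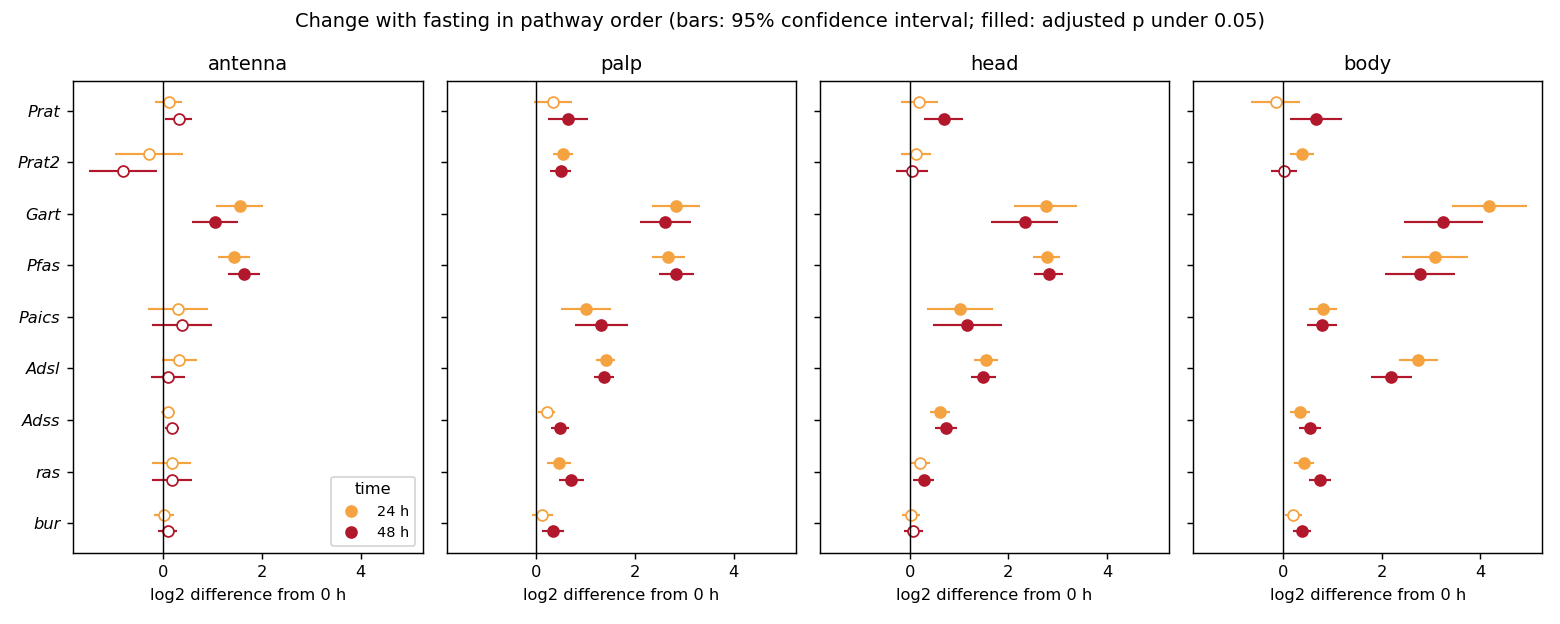
Difference in log2 signal from 0 h (x axis) for each member in pathway order (y axis) in the 4 body parts, at 24 h (orange) and 48 h (red), with 95% confidence intervals. Filled points passed an adjusted p of 0.05; Gart, Pfas and Adsl reach past 2 in body, and in antenna only Gart and Pfas are filled.

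The mean of a sign of RNA length moved with fasting too, while its arrays overlapped between times in every body part. The gap between 3′ and 5′ probe sets of the control genes eIF-4a, GAPDH and Act5C averaged 3.67, 4.88 and 5.38 log2 units in head at 0, 24 and 48 h, and 1.65, 1.77 and 2.03 in body. Palp averaged 2.98, 3.90 and 3.76, and antenna 3.65, 4.08 and 4.10. The head arrays ranged from 2.79 to 5.32 at 0 h and from 3.49 to 7.56 at 48 h. With this gap as a covariate, the 48 h differences in head were 2.68 for Gart, 2.72 for Pfas and 1.53 for Adsl, and all 3 passed. Prat in head did not pass with it (0.46, adjusted p = 0.0723), and neither did ras (adjusted p = 0.173).

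Between 48 h and 24 h no member passed the test in any body part, while 6.44% of all features did in body, 1.37% in head, 4.22% in palp and 0.1% in antenna. At an unadjusted p under 0.05 the count was 5 of 9 in body, where 21.9% of all features reached it, and 1 in each of head (12.6%), palp (18.6%) and antenna (8.29%). In body Prat was higher by 0.82 ± 0.24 (SE) and Gart and Adsl were lower by a difference of -0.93 and -0.55 at 48 h than at 24 h, and these 3 passed in a single fit over all 56 arrays. With the pool as a block in the body fit, Prat alone passed (0.77, adjusted p = 0.0433 from limma), and with the gut level as a covariate it did too (0.94, adjusted p = 0.0107). Prat also passed without 24 h replicate 4 (1.00, adjusted p = 0.0185) or 48 h replicate 2 (0.99, adjusted p = 0.0393), Adsl without 48 h replicate 3 (-0.75, adjusted p = 0.0148) and ras without 24 h replicate 1 (0.39, adjusted p = 0.0362). Array weights let Prat (0.76) and ras (0.36) pass in body, Prat in head (0.52) and Adss (0.23) and bur (0.25) in palp. A further rise after 24 h was thus not detectable for most members with 4 or 5 arrays a group.

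Prat and Prat2, which catalyse the same committed step, passed the test in partly different body parts and times. The genes were not tested against each other. The log2 signal of Prat at 48 h was higher than at 0 h by 0.65 ± 0.19 in palp, 0.69 ± 0.18 in head and 0.67 ± 0.24 in body, whereas at 24 h no body part passed (differences of -0.15 in body, 0.20 in head, 0.34 in palp and 0.12 in antenna). In head the arrays of Prat read 9.28, 8.70, 9.28 and 9.26 at 48 h, against 8.36, 8.63, 8.39, 8.29 and 8.52 at 0 h, so the 48 h arrays all lay above those at 0 h. In palp they read 10.68, 9.79, 10.16 and 10.45 at 48 h, against 9.51, 9.80, 9.60, 9.43 and 9.79 at 0 h, with 1 fasted array among the unfasted ones. In body they read 7.94, 7.11, 7.98 and 7.41 at 48 h, against 6.87, 6.98, 7.15, 7.21 and 6.48 at 0 h, and the groups overlapped. In antenna the 48 h difference passed with array weights (0.37, adjusted p = 0.0343). The Prat rise was lost with the pool as a block in palp (0.65, adjusted p = 0.0568) and body (0.37, adjusted p = 0.144). The body rise was also lost with the 3′ to 5′ gap as a covariate (0.85, adjusted p = 0.0559), with cyclic loess scaling (0.59, adjusted p = 0.0639) and without the filter on dim probe sets (0.67, adjusted p = 0.0741). It was also lost in palp without 48 h replicate 1 or 4 (adjusted p = 0.0706 and 0.0566), and in body without 0 h replicate 1, 2 or 5 (0.0602, 0.0551 and 0.0803) or 48 h replicate 1 or 3 (0.106 and 0.0937).

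Prat2 had a different profile. In palp it read 12.81, 12.55, 12.89, 12.88 and 12.67 at 0 h, 13.37, 13.44, 13.32, 13.11 and 13.25 at 24 h, and 13.37, 13.34, 13.17 and 13.12 at 48 h, so every fasted array stood above every unfasted one. The palp difference was 0.54 ± 0.09 at 24 h (adjusted p = 0.00116) and 0.49 ± 0.10 at 48 h (adjusted p = 0.00186). In head it stayed within 0.13 and 0.05 of the 0 h mean at 24 and 48 h and did not pass. In body Prat2 rose by 0.39 ± 0.11 at 24 h and differed by 0.03 ± 0.12 at 48 h. The body rise at 24 h was lost with the pool as a block (0.40, adjusted p = 0.0571) and without 0 h replicate 1 or 4 (0.0513 and 0.0540) or 24 h replicate 3 or 5 (0.0560 and 0.0570). It was lost too with the gut level as a covariate (0.30, adjusted p = 0.133), with cyclic loess scaling (0.32, adjusted p = 0.0596) and in a single fit over all arrays (adjusted p = 0.123), in which the palp rise at 48 h did not pass either (adjusted p = 0.0694).

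In antenna the Prat2 difference ran the other way. Its arrays read 10.19, 9.29, 10.26 and 10.49 at 0 h, 10.76, 9.56, 9.90, 9.39 and 9.24 at 24 h, and 9.47, 9.02, 9.84, 8.97 and 8.94 at 48 h. The difference at 48 h was -0.81 ± 0.32 and missed the threshold (adjusted p = 0.0950). The low array at 0 h, replicate 2, is also the antenna array on which the gut genes reached 12.6. Without it the difference was -1.07 (adjusted p = 0.0424). The difference also passed without 24 h replicate 1 (-0.81, adjusted p = 0.0403), an array that enters only the estimate of spread there. It passed as lower in a single fit over all arrays (-0.81, adjusted p = 0.00398) and without 5 arrays set aside in an earlier analysis, 0 h replicate 2 of antenna among them (-1.07, adjusted p = 0.00766), as well. It did not pass under the other alternatives. Over all settings run it lay between -1.07 and -0.59, with a largest adjusted p of 0.243 from limma. In the 3 pools with antennae at both times, Prat2 was lower at 48 h than at 0 h in each.

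**Figure D2:**
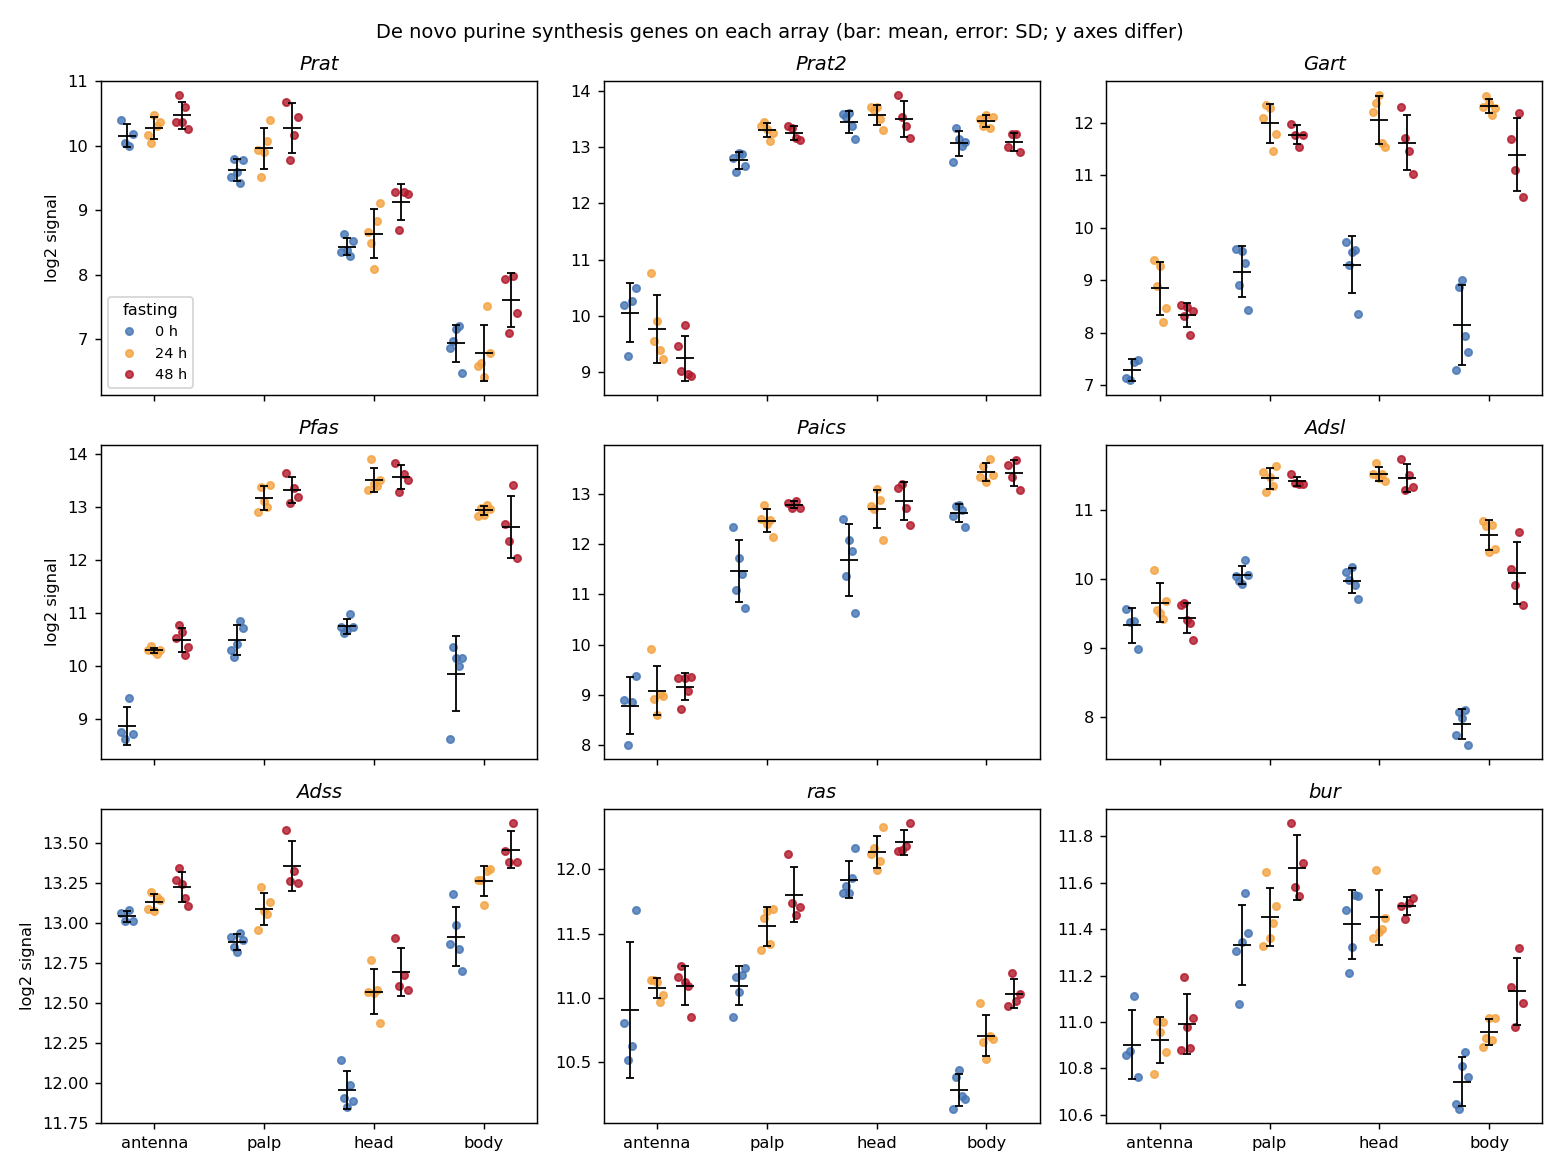
Log2 signal (y axis, scaled per panel) of the 9 members on each of the 56 arrays by body part (x axis) at 0 h (blue), 24 h (orange) and 48 h (red), with group means and SD bars. The fasted arrays of Gart and Pfas clear the 0 h arrays in every body part, those of Adsl do so in palp, head and body, and Prat2 in antenna runs downward.

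Gart, the trifunctional enzyme, showed the largest difference of any member, in body at 24 h. In head at both times, and in palp and antenna at 48 h, the difference of Pfas was larger. In body it read 7.29, 8.86, 9.01, 7.93 and 7.62 log2 signal at 0 h, 12.31, 12.51, 12.38, 12.15 and 12.28 at 24 h, and 11.70, 11.10, 12.19 and 10.59 at 48 h. The unfasted arrays spread over more than a log2 unit, the 24 h arrays were tight, and no fasted array came near the unfasted ones. The body difference was 4.18 ± 0.35 at 24 h (18.2-fold, adjusted p = 1.19e-05) and 3.25 ± 0.37 at 48 h (9.53-fold, adjusted p = 3.22e-05), which ranked it number 15 and number 22 of 9336 features by the size of the rise.

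In palp Gart read 9.59, 8.90, 9.56, 9.32 and 8.43 at 0 h, then 12.08, 12.35, 12.27, 11.46 and 11.78 at 24 h and 11.98, 11.77, 11.55 and 11.77 at 48 h. The head arrays read 9.73, 9.28, 9.53, 9.57 and 8.35 at 0 h, 12.21, 12.38, 12.52, 11.61 and 11.53 at 24 h, and 12.30, 11.71, 11.46 and 11.03 at 48 h. No fasted array overlapped the unfasted ones in either. The differences were 2.83 ± 0.23 and 2.61 ± 0.24 in palp and 2.75 ± 0.30 and 2.33 ± 0.32 in head, at 24 and 48 h, and the change to 48 h in palp against head differed by 0.28, with a 95% interval of -0.60 to 1.16. In each of them, the lowest unfasted array came from pool 9.

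In antenna Gart read 7.13, 7.10, 7.44 and 7.48 at 0 h, 9.38, 8.89, 9.26, 8.19 and 8.48 at 24 h, and 8.52, 8.31, 8.49, 7.96 and 8.42 at 48 h. The fasted arrays again lay above all unfasted ones, by a smaller step. The difference was 1.55 ± 0.22 at 24 h (adjusted p = 0.00124) and 1.05 ± 0.22 at 48 h (adjusted p = 0.00617). With the gut level of each array as a covariate, the Gart difference at 48 h was 3.14 in body, 2.32 in head, 2.51 in palp and 1.09 in antenna, and it passed in each.

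Pfas, which makes the amidine intermediate with glutamine as nitrogen donor, rose by nearly the same amount in palp, head and body. In head it read 10.73, 10.61, 10.67, 10.98 and 10.74 at 0 h, 13.33, 13.90, 13.44, 13.40 and 13.52 at 24 h, and 13.82, 13.29, 13.63 and 13.51 at 48 h. The step of more than 2 log2 units was far larger than the spread within any of the 3 groups. The head difference was 2.77 ± 0.13 at 24 h (6.83-fold, adjusted p = 2.22e-08) and 2.82 ± 0.13 at 48 h (7.05-fold, adjusted p = 2.35e-08).

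In palp Pfas read 10.31, 10.17, 10.40, 10.84 and 10.72 at 0 h, then 12.91, 13.38, 13.12, 13.00 and 13.41 at 24 h and 13.65, 13.08, 13.35 and 13.20 at 48 h. The body arrays read 8.61, 10.36, 10.14, 9.99 and 10.15 at 0 h, 12.83, 12.98, 12.85, 13.03 and 12.97 at 24 h, and 12.68, 12.37, 13.41 and 12.04 at 48 h. The fasted arrays did not overlap the unfasted ones in either, and the body array of 8.61 stood well below its group. The differences were 2.67 ± 0.16 and 2.83 ± 0.16 in palp and 3.08 ± 0.31 and 2.77 ± 0.33 in body, at 24 and 48 h.

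In antenna Pfas read 8.75, 8.61, 9.38 and 8.71 at 0 h, 10.30, 10.36, 10.27, 10.23 and 10.30 at 24 h, and 10.52, 10.77, 10.63, 10.20 and 10.35 at 48 h. No unfasted array overlapped the fasted ones, and the difference was 1.43 ± 0.15 at 24 h (2.70-fold, adjusted p = 0.000118) and 1.63 ± 0.15 at 48 h (3.09-fold, adjusted p = 2.08e-05). The Gart and Pfas rises passed in all 4 body parts at both times under every alternative run.

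Paics, the carboxylase and synthase of the next steps, rose by 1.00 ± 0.24 and 1.32 ± 0.25 in palp, by 1.02 ± 0.31 and 1.17 ± 0.33 in head and by 0.81 ± 0.13 and 0.79 ± 0.14 in body, at 24 and 48 h. In antenna its differences of 0.30 ± 0.28 and 0.38 ± 0.28 did not pass. The unfasted arrays of palp and head were widely spread: palp read 12.35, 11.09, 11.73, 11.42 and 10.74, and head read 12.49, 11.37, 12.09, 11.87 and 10.62, in both cases for pools 4, 5, 6, 8 and 9. Pool 4 was the highest and pool 9 the lowest in both dissections of the same flies. At 48 h the palp arrays read 12.81, 12.72, 12.87 and 12.72, above all of the unfasted ones, and the head arrays read 13.12, 13.20, 12.73 and 12.39, with the last below the highest at 0 h.

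The body arrays of Paics were tight, with 12.34 to 12.78 at 0 h, 13.23 to 13.69 at 24 h and 13.08 to 13.67 at 48 h. The fasted arrays did not overlap the unfasted ones. The head rise was less secure. At 24 h (adjusted p = 0.0370) it was lost without 0 h replicate 2 or 4 (adjusted p = 0.0781 and 0.0589) and without 24 h replicate 1, 2, 3 or 4 (0.0647, 0.0723, 0.0715 and 0.0741), and with the gut level as a covariate (1.06, adjusted p = 0.0940). It was also lost there without the filter on dim probe sets (adjusted p = 0.0955), with cyclic loess scaling (0.97, adjusted p = 0.0570) and without the 5 arrays set aside (0.94, adjusted p = 0.0781). At 48 h (adjusted p = 0.0189) it was lost without 48 h replicate 1 or 2 (0.0503 and 0.0508) and without that filter (adjusted p = 0.0539).

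Adsl, the lyase that acts in the main pathway and in the AMP branch, rose in body, head and palp. In body it read 7.74, 8.07, 7.98, 8.11 and 7.60 at 0 h, 10.84, 10.77, 10.39, 10.79 and 10.44 at 24 h, and 10.16, 9.92, 10.68 and 9.62 at 48 h, with no overlap between fasted and unfasted arrays. In head it read 10.11, 9.99, 10.17, 9.92 and 9.71 at 0 h, 11.53, 11.68, 11.47, 11.52 and 11.42 at 24 h, and 11.74, 11.29, 11.51 and 11.34 at 48 h. Both tissues moved by steps larger than their spread, and body by the larger one: 2.75 ± 0.18 and 2.20 ± 0.19 in body and 1.54 ± 0.11 and 1.49 ± 0.12 in head, at 24 and 48 h.

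In palp Adsl read 10.04, 9.98, 9.93, 10.27 and 10.07 at 0 h, 11.56, 11.27, 11.49, 11.35 and 11.64 at 24 h, and 11.52, 11.40, 11.38 and 11.38 at 48 h. The palp difference was 1.40 ± 0.09 at 24 h and 1.36 ± 0.09 at 48 h, close to that in head. In antenna Adsl read 9.57, 9.37, 9.40 and 8.98 at 0 h, 10.14, 9.55, 9.51, 9.42 and 9.68 at 24 h, and 9.63, 9.65, 9.41, 9.37 and 9.12 at 48 h. These antenna groups overlapped, and the differences of 0.33 ± 0.16 (adjusted p = 0.260) and 0.10 ± 0.16 (adjusted p = 0.707) did not pass. The 95% interval of the 48 h difference, -0.25 to 0.45, lay below the change in each of the other body parts.

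Adss, ras and bur act after IMP. Adss, at the entry to the AMP branch, rose by 0.48 ± 0.08 in palp, 0.74 ± 0.10 in head and 0.54 ± 0.10 in body at 48 h. In head it read 12.14, 11.91, 11.85, 11.98 and 11.89 at 0 h, 12.57, 12.77, 12.56, 12.58 and 12.37 at 24 h, and 12.91, 12.61, 12.67 and 12.58 at 48 h, so the fasted arrays did not overlap the unfasted ones. At 24 h it passed in head (0.62 ± 0.10) and body (0.35 ± 0.10). The body call at 24 h was lost with the pool as a block (0.27, adjusted p = 0.0689), with cyclic loess scaling (0.28, adjusted p = 0.0513) and without 0 h replicate 4 or 5 or 24 h replicate 5 (adjusted p = 0.0508, 0.0506 and 0.0518). In antenna the 48 h arrays read 13.11 to 13.34, above all at 0 h (13.01 to 13.08), but the difference of 0.18 ± 0.07 missed the threshold (adjusted p = 0.0734), which it passed without 48 h replicate 6 (0.21, adjusted p = 0.0488) and without the filter on dim probe sets (adjusted p = 0.0308). In palp at 24 h Adss missed it too (0.21 ± 0.08, adjusted p = 0.0727) and passed without 48 h replicate 1, an array that enters only the estimate of spread there (adjusted p = 0.0373).

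In the GMP branch, ras rose by 0.71 ± 0.12 in palp and 0.75 ± 0.10 in body at 48 h, and by 0.46 ± 0.11 and 0.42 ± 0.09 at 24 h. In body it read 10.14 to 10.44 at 0 h, 10.53 to 10.96 at 24 h and 10.94 to 11.19 at 48 h, with no overlap between fasted and unfasted arrays. The smaller head difference at 48 h, 0.29 ± 0.10, stood at the edge (adjusted p = 0.0452). It was lost without any 1 of 0 h replicates 1 to 4, 24 h replicates 1, 2 and 4, and 48 h replicates 1 to 4, with adjusted p between 0.0537 and 0.143, and it was 0.30 with the gut level as a covariate (adjusted p = 0.0516). It was lost as well with cyclic loess scaling (0.22, adjusted p = 0.0711), without the 5 arrays set aside (0.28, adjusted p = 0.0828) and in a single fit over all arrays (adjusted p = 0.116). The 24 h arrays enter only the estimate of spread in this 48 h difference. The 24 h difference in head, 0.22 ± 0.09, missed the threshold (adjusted p = 0.120) and passed with the pool as a block (0.29, adjusted p = 0.00732), with array weights (adjusted p = 0.0331) and without 0 h replicate 5 (0.28, adjusted p = 0.0307).

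In antenna 1 array decided the value of ras. The 0 h arrays read 10.81, 10.52, 10.63 and 11.68, against 10.97 to 11.14 at 24 h and 10.85 to 11.25 at 48 h. With all arrays the differences were 0.17 and 0.19 and did not pass. Without the array of 11.68, 0 h replicate 4 from pool 9, they were 0.43 (adjusted p = 0.0368) and 0.45 (adjusted p = 0.0128), and with the pool as a block, where pool 9 adds nothing, the 48 h difference was also 0.45 (adjusted p = 0.0267).

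For bur, the GMP synthase, the differences that passed were at 48 h, in palp (0.33 ± 0.11, adjusted p = 0.0271) and in body (0.39 ± 0.09, adjusted p = 0.00315). In body it read 10.63 to 10.87 at 0 h, 10.89 to 11.02 at 24 h and 10.98 to 11.32 at 48 h, with no overlap between fasted and unfasted arrays, and at 24 h it passed there with array weights (0.24, adjusted p = 0.0182). In palp the arrays overlapped (11.54 to 11.86 at 48 h against 11.08 to 11.56 at 0 h), and the call was lost with the pool as a block (0.36, adjusted p = 0.0672), with the gut level as a covariate (0.28, adjusted p = 0.0525) and without 48 h replicate 1 or 4 or 0 h replicate 2 (adjusted p = 0.0966, 0.0631 and 0.0615).

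Whether the change with 48 h of fasting differed between body parts was tested as an interaction in a single fit over all 56 arrays, in 6 pairs of body parts. This fit did not pair the body parts dissected from the same flies. Where the pool is named as a block here, it is the pool within a body part, which does not pair them either. In body against antenna, the change was larger in body for 6 members and smaller for none, where 23.7% of all features differed. In antenna against palp it was smaller in antenna for 4 (4.46% of all features differed), and in antenna against head smaller in antenna for 3 (4.39%). In palp against head no member differed (3.71% of all features, with 3 members and 11.4% of all features at an unadjusted p under 0.05), and in body against head and body against palp 1 did (19.8% and 19.6%).

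Adsl differed in 5 of the 6 pairs. Its change was 2.20 in body and 0.10 in antenna, a difference of 2.09 ± 0.21 (adjusted p = 9.31e-11). It was smaller in antenna than in palp by a difference of -1.26 ± 0.21 (adjusted p = 4.84e-05) and than in head by -1.39 ± 0.21 (adjusted p = 6.63e-06), and larger in body than in palp by 0.83 ± 0.21 (adjusted p = 0.00321). Against head it was larger in body by 0.71 ± 0.21 (adjusted p = 0.0129), a call lost without body 48 h replicate 3 (0.51, adjusted p = 0.0576). That array read 10.68, the highest of its group.

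For Gart the body change exceeded the antenna change by 2.20 ± 0.44 (adjusted p = 0.00015), and the antenna change differed from that in palp by -1.56 ± 0.44 (adjusted p = 0.0244) and in head by -1.28 ± 0.44 (adjusted p = 0.0933), which passed with array weights (-1.07, adjusted p = 0.0294) and with the 3′ to 5′ gap as a covariate (-1.46, adjusted p = 0.0344). The antenna and palp difference was lost with the pool as a block (-1.33, adjusted p = 0.0620), and without antenna 0 h replicate 3 or 4, antenna 48 h replicate 5, palp 0 h replicate 5 or palp 48 h replicate 1 (adjusted p from 0.0514 to 0.0621). In body against head the Gart difference of 0.92 ± 0.44 did not pass (adjusted p = 0.134) and did without head 0 h replicate 5 (1.16, adjusted p = 0.0450).

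For Pfas the antenna change was smaller than that in palp by a difference of -1.20 ± 0.31 (adjusted p = 0.0121) and than that in head by -1.19 ± 0.31 (adjusted p = 0.0120), and the body change exceeded it by 1.14 ± 0.31 (adjusted p = 0.00460). Without antenna 0 h replicate 3, the array that read 9.38, the first 2 became -1.03 (adjusted p = 0.0514) and -1.01 (adjusted p = 0.0552). Among palp, head and body Pfas did not differ, with a 95% interval of -0.61 to 0.63 in palp against head and of -0.66 to 0.58 in body against head.

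Prat2 differed in the direction its levels ran: its change was smaller in antenna than in palp by a difference of -1.30 ± 0.28 (adjusted p = 0.00214) and larger in body than in antenna by 0.84 ± 0.28 (adjusted p = 0.0258). The second of these was lost without any 1 of antenna 0 h replicates 3 and 4, antenna 48 h replicates 5 and 6 and body 0 h replicate 1 (adjusted p from 0.0520 to 0.0846), and with array weights (0.69, adjusted p = 0.0828). In antenna against head the difference of -0.86 ± 0.28 missed the threshold (adjusted p = 0.0783). It passed without antenna 0 h replicate 2 (-1.11, adjusted p = 0.00699), antenna 24 h replicate 1 (-0.86, adjusted p = 0.0236) or antenna 48 h replicate 3 (-1.01, adjusted p = 0.0227), and with the pool as a random block (-0.84, adjusted p = 0.0347). The 24 h array enters only the estimate of spread there.

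Adss changed less in antenna than in head by a difference of -0.56 ± 0.12 (adjusted p = 0.00126), and more in body than in antenna by 0.36 ± 0.12 (adjusted p = 0.0189). ras changed more in body than in antenna by 0.56 ± 0.19 (adjusted p = 0.0227). The body and antenna differences of both were lost with the pool as a block (Adss 0.30, adjusted p = 0.0926, and ras 0.29, adjusted p = 0.204). The Adss one was lost without body 0 h replicate 5 or 48 h replicate 3 (adjusted p = 0.0502 and 0.0522). The ras one was lost without antenna 0 h replicate 4, antenna 48 h replicate 6 or body 48 h replicate 2 (adjusted p = 0.145, 0.0502 and 0.0529), with a value of 0.30 without the first of them, and with array weights (0.43, adjusted p = 0.0721). Differences of ras and bur that missed the threshold passed without single arrays: ras in body against head without antenna 0 h replicate 4 (0.46, adjusted p = 0.0146) and in antenna against palp without antenna 0 h replicate 2 (-0.65, adjusted p = 0.0300), and bur in body against head without head 0 h replicate 2 or body 48 h replicate 2 (0.37 and 0.36) and in body against antenna without antenna 48 h replicate 2 or body 48 h replicate 2 (0.35 each). Antenna 0 h replicate 4 enters only the estimate of spread in body against head.

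**Figure D3:**
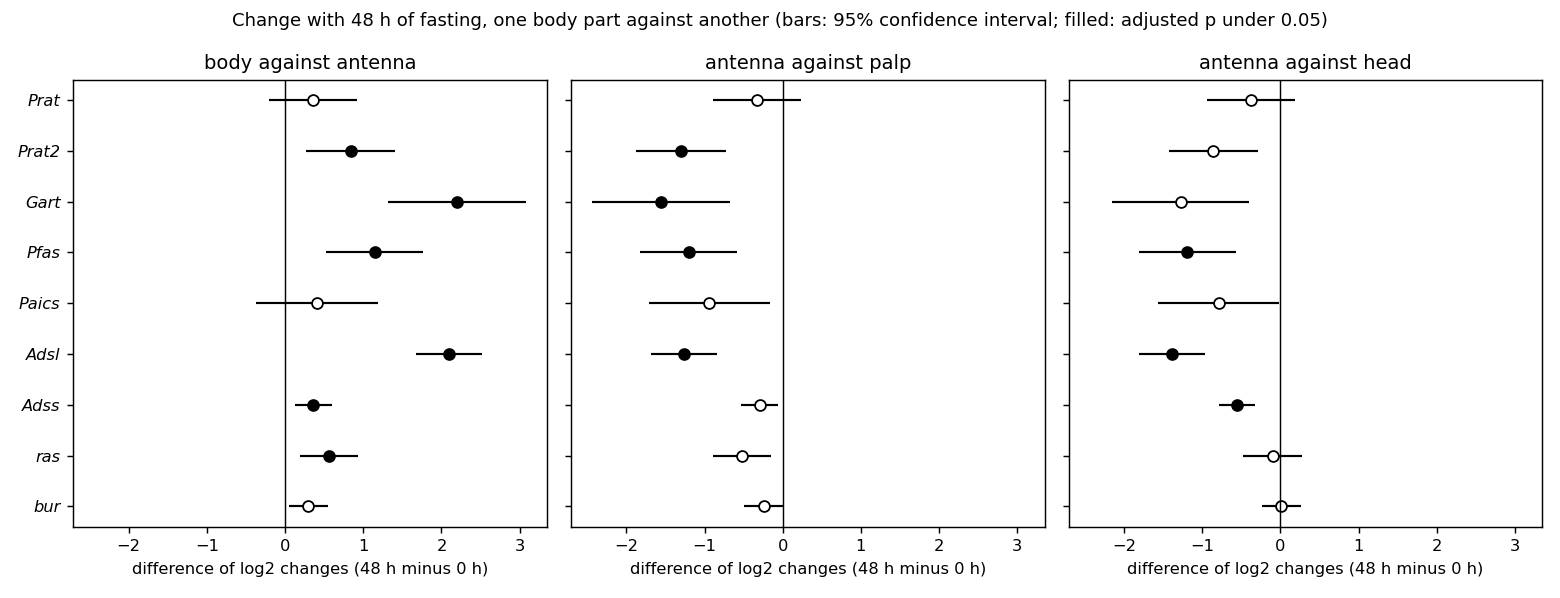
Difference between body parts in the log2 change from 0 h to 48 h (x axis) for each member in pathway order (y axis), with 95% confidence intervals, for the 3 pairs that involve antenna. Filled points passed an adjusted p of 0.05; Adsl and Gart lie above 2 in body against antenna, and the filled points of both other panels lie below 0.

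Before fasting the members already had different tissue profiles, with levels of 1 gene compared between body parts only. Prat was highest in antenna (10.16 ± 0.18, SD, n = 4), followed by palp (9.62 ± 0.17), head (8.44 ± 0.14) and body (6.94 ± 0.29, n = 5 each), and every step of this order passed the test with the deposited scaling. With cyclic loess scaling body against head became -0.06 (adjusted p = 0.681). Prat2 averaged 13.45 ± 0.20 in head, 13.07 ± 0.22 in body, 12.76 ± 0.15 in palp and 10.06 ± 0.53 in antenna. Neither body and head nor body and palp were told apart for Prat2, and antenna lay below all of them by at least 2.70.

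Gart averaged 9.29 ± 0.55 in head, 9.16 ± 0.49 in palp, 8.14 ± 0.76 in body and 7.29 ± 0.20 in antenna, and Pfas 10.74 ± 0.14, 10.49 ± 0.28, 9.85 ± 0.70 and 8.86 ± 0.35 in the same order. For both genes head and palp did not differ beyond their spread. Paics averaged 12.63 ± 0.18 in body, 11.69 ± 0.72 in head, 11.47 ± 0.62 in palp and 8.79 ± 0.57 in antenna, where it was lower than in palp by a difference of -2.68 ± 0.36. Adsl averaged 10.06 ± 0.13 in palp, 9.98 ± 0.18 in head, 9.33 ± 0.25 in antenna and 7.90 ± 0.22 in body. The Adsl difference of body against antenna became -0.04 (adjusted p = 0.790) with cyclic loess scaling.

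Adss averaged 13.04 ± 0.03 in antenna, 12.92 ± 0.18 in body, 12.88 ± 0.05 in palp and 11.96 ± 0.12 in head, and only head was told apart from the others. ras averaged 11.92 ± 0.14 in head, 11.10 ± 0.15 in palp, 10.91 ± 0.53 in antenna and 10.29 ± 0.12 in body, with palp and antenna not told apart. bur averaged 11.42 ± 0.15 in head, 11.33 ± 0.17 in palp, 10.90 ± 0.15 in antenna and 10.74 ± 0.11 in body, with head and palp, and antenna and body, not told apart.

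At 0 h the count of members that differed was 9 in antenna against head (2 higher and 7 lower, where 49.0% of all features differed) and 4 in palp against head (2 higher and 2 lower, 53.9%). It was 7 in antenna against palp (1 higher and 6 lower, 43.7%). The palp against head count lay near the share of all features and says little about the members. The body comparisons gave 8 against head (2 higher and 6 lower, 85.9%), 7 against antenna (4 higher and 3 lower, 87.8%) and 7 against palp (1 higher and 6 lower, 85.9%), shares so near the background that they say little about the members. The body directions also depend on the scaling. The median of all features was -0.55, -0.72 and -0.75 in body against head, antenna and palp, and cyclic loess moved it by 0.80, 1.01 and 0.95. Under that scaling Gart and Pfas turned from lower to higher in body against head and against palp, bur did so against palp and antenna, and ras did so against antenna, where of these only bur passed as higher (adjusted p = 2.87e-05). The calls of bur against head (-0.05, adjusted p = 0.646) and ras against palp (-0.06, adjusted p = 0.762) were lost. Between antenna, palp and head the median of all features moved by at most 0.15, and the members that passed kept their directions.

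Some unfasted calls changed when 1 array was left out. Without antenna 0 h replicate 4, ras was lower in antenna than in palp (-0.45, adjusted p = 0.00287). Prat2 was lower in body than in head without antenna replicate 2 or 4, head replicate 5 or body replicate 2 (adjusted p = 0.00697, 0.0415, 0.0306 and 0.0357), and higher in body than in palp without antenna replicate 2 (adjusted p = 0.0242), and Adss was lower in body than in antenna without body replicate 2 (adjusted p = 0.0231). The antenna arrays enter only the estimate of spread in both Prat2 comparisons. Calls were lost for Paics in body against head without head replicate 5 (0.67, adjusted p = 0.0518), for Gart in body against antenna without antenna replicate 1 or 2 or body replicate 2 or 3 (adjusted p from 0.0664 to 0.0912), and for Pfas in body against palp without palp replicate 4 or 5 or body replicate 1 (adjusted p from 0.0625 to 0.0724).

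Across the 56 arrays, with each body part centred on its own mean, Gart, Pfas and Adsl moved together most closely, with a Pearson correlation of 0.94 between Gart and Pfas, 0.94 between Gart and Adsl and 0.91 between Pfas and Adsl. These correlations describe arrays that share fasting times, pools and body parts. Within antenna alone the value for Pfas and Adsl was 0.38. Prat and Prat2 had a correlation of -0.14 over all arrays, and Prat2 with Gart had 0.96 in palp and 0.01 in antenna.

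The gene whose profile was most like the mean of the members, among 10108 other genes, was pug, the cytosolic trifunctional enzyme that charges folate with the formyl groups the pathway uses (Pearson correlation 0.95 over 56 arrays). It was followed by CG7763 (0.94), Sardh, the sarcosine dehydrogenase that feeds carbon units into folate (0.92), CG3999, the glycine dehydrogenase of glycine cleavage (0.92), ash2, a subunit of histone methyltransferase complexes (0.91) and Nt5b, a nucleotidase (0.91). The pug difference at 48 h was 1.10 in body, 1.16 in head, 1.22 in palp and 0.44 in antenna, and that of Sardh was 5.41 in body, 2.50 in head, 2.34 in palp and 2.10 in antenna. CG7763 had the largest of these, 7.05 in body, 6.58 in head, 5.04 in palp and 1.74 in antenna. The correlations here, and those with single members, also describe arrays that share fasting times, pools and body parts. Whether they hold within a fasting time was not tested.

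**Figure D4:**
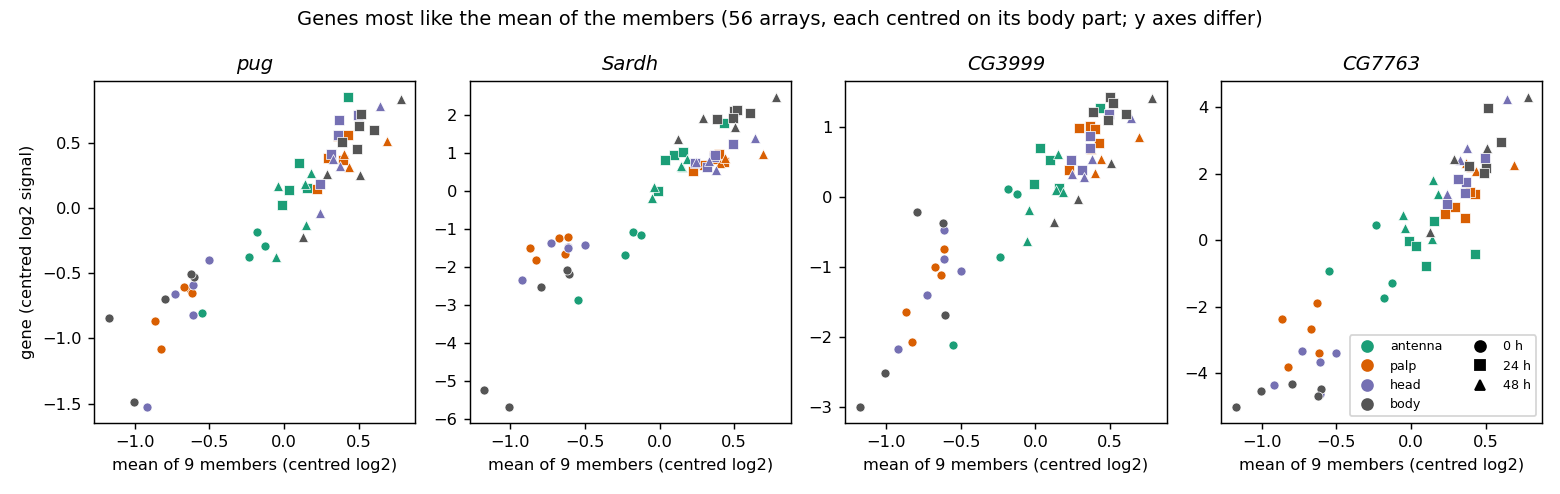
Centred log2 signal of 4 of the most alike genes (y axis, scaled per panel) against the mean of the 9 members (x axis) on 56 arrays, coloured by body part, with circles for 0 h, squares for 24 h and triangles for 48 h. The arrays of 0 h sit at -0.12 or below on the x axis and the fasted arrays of palp, head and body at 0.13 or above.

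The genes most like single members differed from member to member. Gart was closest to pug (0.95) and Sardh (0.93), Adsl to CG7763 (0.93) and Sardh (0.91), and Pfas to bmm, the brummer triglyceride lipase (0.95), and mino, a glycerol-phosphate acyltransferase (0.93). Paics was closest to CG11899, the phosphoserine aminotransferase of serine synthesis (0.89), and to Lst, the peptide hormone limostatin (0.88). Prat2 was closest to Hex-C, a hexokinase (0.81), and lncRNA:CR33942 (0.74), and Prat to Grip75 (0.77) and mod (0.76). For Adss they were CG9626 (0.90) and Sclp (0.89), for ras sqa (0.83) and Grik (0.80), and for bur CG6686 (0.78) and mahj (0.78).

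Around the pathway, the enzyme that supplies its starting sugar phosphate moved with it. Prps, the ribose phosphate pyrophosphokinase, was higher at 48 h than at 0 h by 0.51 in palp, 0.56 in head and 0.64 in body (adjusted p = 0.00629, 0.00400 and 0.00265), and by 0.32 in antenna, which did not pass. The palp call was lost with the pool as a block. Atic, which closes the purine ring, had no probe set of its own here. Lists of related genes were read in the same fits, at 48 h against 0 h, where the share of all features that fell was 21.0% in body, 12.3% in head, 15.7% in palp and 8.97% in antenna. The share that rose was 29.8% in body, 13.2% in head, 17.4% in palp and 8.61% in antenna.

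Most tested genes of folate one-carbon metabolism rose in palp, head and body, and 1 fell. In palp 5 of 6 tested rose and 1 fell, in head 4 of 6 rose and 1 fell, in body 3 of 5 rose and 1 fell, and in antenna 0 of 6 rose and 1 fell. The median difference was 0.86 in palp, 0.94 in head, 0.69 in body and 0.26 in antenna. Nmdmc, a mitochondrial methylene-folate dehydrogenase, rose by 1.38 in palp and 1.43 in head. The gene that fell was CG7560, the methylene-folate reductase, which draws folate units towards methionine: its difference was -2.69 in body, -1.53 in head, -1.66 in palp and -1.09 in antenna. The antenna call on CG7560 was lost with the pool as a block.

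Some of the genes that turn guanosine triphosphate into pteridines fell at 48 h. In head 5 of 6 tested fell, in body 3 of 5, in palp 3 of 6 and in antenna 2 of 6, and none rose. Pu, the GTP cyclohydrolase at the entry to this route, had a difference of -1.38 in head, -1.35 in body and -0.74 in palp. Sptr, the sepiapterin reductase, had -1.38 in body, -0.80 in palp and -0.51 in antenna, se, which acts in red eye pigment synthesis, -1.79 in head, and DhpD, the dihydropterin deaminase, -0.69 in antenna. All of these kept their direction and their side of the threshold under the alternatives run.

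In body 2 of 4 tested genes of de novo pyrimidine synthesis rose, Dhod by 0.40 and r, the trifunctional enzyme rudimentary, by 0.39, and with the gut level as a covariate neither passed. In head 1 fell (r-l, the UMP synthase, by -0.32), and it did not pass in 12 of 24 alternatives. In palp and antenna none passed. The 5 tested pentose phosphate genes had no rise in any body part: 2 fell in body (Rpi by -0.36 and Pgls by -0.33), 1 in palp (Rpe by -0.77), 2 in antenna (CG8036, a transketolase, by -0.52 and Rpe by -0.49) and none in head. RnrL, the large subunit of ribonucleotide reductase, was tested in antenna, palp and head and passed in none of them. The falls of CG8036, Rpe in antenna, Rpi and Pgls did not pass in 2 to 5 of 24 alternatives.

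Genes of purine salvage, interconversion and breakdown went both ways. Of the salvage and interconversion genes tested, 4 rose and 4 fell in body (of 9), 2 rose and 1 fell in head (of 8), 2 rose and 4 fell in palp (of 8), and 0 rose and 2 fell in antenna (of 8). Adgf-D, a secreted adenosine deaminase, rose by 1.01 in body, 0.62 in head and 1.39 in palp, whereas Adgf-A of the same family had a difference of -1.67 in body. NT5E-2, a nucleotidase, had -1.74 in head, -0.92 in palp and -1.38 in antenna, and Aprt, the adenine phosphoribosyltransferase, -0.86 in antenna. Of the breakdown genes, 3 rose and 2 fell in body (of 5), 1 rose in head (of 3), 2 rose and 1 fell in palp (of 4), and 1 rose and 1 fell in antenna (of 3). Whether the counts of these small lists exceed the shares of all features that rose or fell was not tested.

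Among the breakdown genes, ry, the xanthine dehydrogenase rosy, rose by 1.21 in body, and CG30016, a hydroxyisourate hydrolase, had a difference of -2.59 there. CG16758, a purine nucleoside phosphorylase, rose by 0.50 in head, 0.62 in palp and 0.64 in antenna, CG6106, an allantoinase, by 1.33 in palp, and mal, which completes the cofactor of xanthine dehydrogenase, had -0.55 in antenna. Fat body markers fell beside all of these, and their part in the differences was not tested. Aprt in antenna, CG16758 in head and ry did not pass in 2 to 4 of 24 alternatives.

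**Figure D5:**
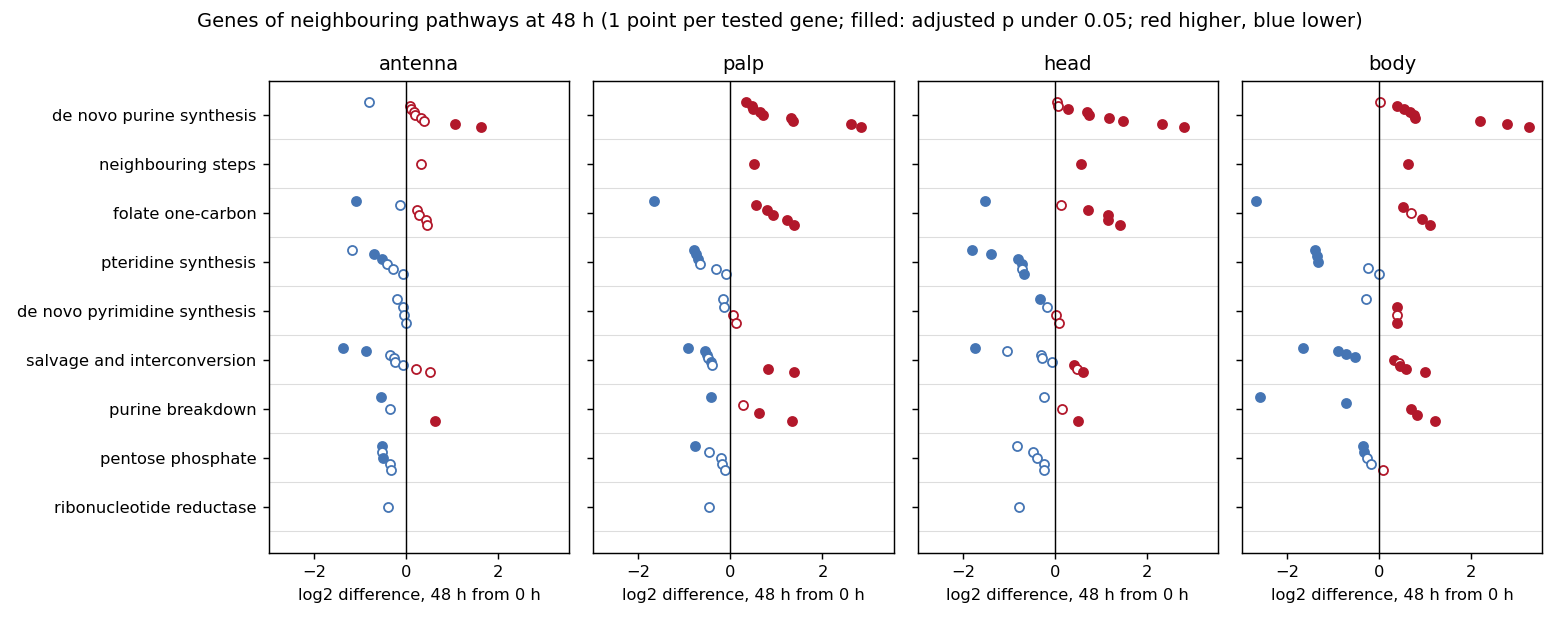
Difference in log2 signal between 48 h and 0 h (x axis) of each tested gene of the purine synthesis members and of 8 related lists (y axis) in the 4 body parts, red where higher and blue where lower at 48 h. Filled points passed an adjusted p of 0.05; no pteridine gene is filled to the right of 0, and the purine genes in palp, head and body all lie to the right of it.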

How the data were processed

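Total RNA was extracted, amplified with NuGEN Ovation and biotin-labelled, per the labels' protocols. The deposited values are log2 signals that the authors made with GCRMA, per the submitters' processing notes; its version and the genome build are not given in the sources used here. The array table holds 18952 probe sets. Control probe sets (183) were left out, and probe sets of no gene (4720) or several genes (402) were left unnamed. A gene with several probe sets was read from the one with the highest mean, which gave 17105 features, and every probe set of the members was used. Arrays, not read depth, limit the precision.

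Differences between times were tested per body part with limma 3.58.1 in R 4.3.3 (3 group means, moderated two-sided test, Benjamini-Hochberg adjustment over all features with a log2 signal of at least 4 on at least 4 arrays), those between body parts in the change over 12 groups, and unfasted ones over the 0 h arrays. The fit was tested on simulated data. The members, lists and rules were chosen with earlier results of these data known. Named genes were all members, Prps and Atic, up to 2 called genes with the largest 48 h difference per list and body part, and those most correlated with the members.

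Pool numbers name the same pool of flies and so pair the arrays. Within a body part, deviations from the group means at different times correlated between arrays of a pool, weakly on average. The mean r was 0.11 for body, 0.20 for head, 0.13 for palp and 0.12 for antenna. For arrays of unlike pools it was -0.02, -0.04, -0.03 and -0.02. The correlation within a pool that limma estimated for the random block was larger in head, at 0.47. It was 0.15 in body, 0.12 in palp and 0.15 in antenna. The correlation between body parts of the same pool was not measured. Pool 9 gave only 0 h arrays and pool 7 none at 0 h. The pool is not in the fits unless named. The pools are separate pools of flies, and arrays within a pool are not independent. The body 48 h array with different replicate numbers in title and source name was named by its title. Alternatives were no filter, cyclic loess, the pool as a fixed or random block, array weights, every probe set, without 5 arrays set aside in an earlier analysis (0 h replicate 2 of antenna, palp and head, 24 h replicate 1 of antenna and 2 of palp), a control-probe measure of RNA length as covariate, a single fit, leaving out each array, and, chosen after seeing the data, the gut level as covariate. Figures were drawn with matplotlib 3.10.9.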

Additional observations from a re-analysis of the deposited data

Results flagged for a closer look

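In 108 groups of 4 or 5 arrays (9 members in 12 groups), 3 arrays stood apart from their group by Dixon's test, which chance alone would do in about 1 group in 20. Prat in head at 48 h read 8.70 on replicate 2, against 9.26 to 9.28 on the others. Pfas in body at 0 h read 8.61 on replicate 1, against 9.99 to 10.36. Adsl in palp at 48 h read 11.52 on replicate 1, against 11.38 to 11.40.

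The change with 48 h of fasting differed between body parts in 15 of 54 tests of a member. In body against antenna it was larger in body by 2.20 for Gart, 2.09 for Adsl, 1.14 for Pfas, 0.84 for Prat2, 0.56 for ras and 0.36 for Adss. In antenna against palp the difference was -1.56 for Gart, -1.30 for Prat2, -1.26 for Adsl and -1.20 for Pfas. In antenna against head it was -1.39 for Adsl, -1.19 for Pfas and -0.56 for Adss. For Adsl the change was larger in body by 0.71 against head and by 0.83 against palp.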

How the results depend on the processing

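Of 46 member differences from 0 h that passed, 36 passed under every alternative run, as did 8 of 15 tests between body parts of the change with fasting and 30 of 42 unfasted ones. Between times of a body part, arrays of the same pool are paired by the pool as a replicate block. The calls it changed stand beside the results. In the tests between body parts of the change with fasting, the block was the pool within a body part. Dissections of the same flies were therefore not paired there. In the unfasted fits the block was the pool across body parts. Among the counts of members, the pool as a block moved by over 1.5 times only that for body at 48 h against 24 h. This was 0 without the block and 1 with it, as fixed and as random. That count was also 1 with the gut level as a covariate, 2 with array weights and 3 in a single fit over all arrays. Array weights gave 2 in palp and 1 in head at 48 h against 24 h, and in the change with fasting 1 for palp against head and 2 for body against head. The covariate on RNA length gave 5 for antenna against head and 3 for body against head, and cyclic loess also gave 3 for body against head, where leaving out the 5 arrays set aside gave 2. Cyclic loess gave 4 for unfasted body against head. It turned Gart to 0.36 and Pfas to 0.075 there, ras to 0.17 and bur to 0.61 in unfasted body against antenna, and Gart to 0.66, Pfas to 0.46 and bur to 0.15 in unfasted body against palp. The cause was not tested.

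Leaving out each array in turn, the count from 0 h to 24 h was 5 to 7 in body, 4 to 6 in head, 6 to 7 in palp and 2 to 3 in antenna, and to 48 h 7 to 8 in body, 5 to 7 in head, 7 to 9 in palp and 2 to 3 in antenna. At 48 h against 24 h in body it was 0 to 1. For the change with fasting it was 2 to 4 for antenna against head, 0 to 2 for body against head, 2 to 5 for antenna against palp and 4 to 7 for body against antenna. For unfasted body it was 8 to 9 against head, 6 to 7 against antenna and 6 to 8 against palp, and 7 to 8 for unfasted antenna against palp.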

Other observations

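In palp and head Paics and Gart were lowest at 0 h in pool 9, and Paics was highest in pool 4, in dissections of the same flies. Pool 9 gave no fasted arrays. In antenna the pool 9 array was the highest of its group for Paics (9.38), Gart (7.48) and ras (11.68). In body Gart was lowest in pool 4 (7.29) and Paics in pool 9 (12.34).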
